A study of Mus musculus with 7 samples.

Results

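The data concern 5 cell classes of the mouse pancreas after 2 kinds of insult, reprogramming by the 4 factors Oct4, Sox2, Klf4 and c-Myc (i4F) and pancreatitis evoked by caerulein. The classes were read from the cluster names that the authors gave to each cell: names starting with Acinar, starting with Ductal, containing stellate, containing endothelial, and starting with Macrophages. They held 41729 of the 47820 cells of the i4F and caerulein mice, and the whole series held 58473 cells. In i4F and caerulein mice, respectively, the classes held 3531 and 2636 acinar cells, 976 and 572 ductal cells, 8354 and 5715 stellate cells, 1422 and 836 endothelial cells, and 7232 and 10455 macrophages. The question set by the design was how injured and repairing pancreas compares with reprogramming pancreas, cell class by cell class.

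One 10x Genomics 3′ library was made per mouse, and in it a unique molecular identifier (UMI) marks each captured mRNA molecule. The i4F group comprised 3 mice of the i4F-B line, which were heterozygous for a reverse tetracycline transactivator (rtTA) in the Rosa26 locus and for a doxycycline-inducible cassette of the 4 factors in the Pparg gene, so that all cells of the mouse can express the factors. The WT group comprised 2 mice without these alleles. Per the labels all mice of the series were C57BL/6. Mice of both groups were 2 months old and drank doxycycline at 1 mg/ml in sucrose water for 7 days. The caerulein group comprised 2 wild-type mice, 2 months old, that received 7 hourly injections of 100 µg/kg caerulein on each of 2 days and were killed on the fourth day after the first injection, without doxycycline. The mice therefore differed in agent, in genotype and in time since the insult began, and these cannot be told apart. WT values are given beside the others as the uninjured level measured in the same way, but these mice drank doxycycline and the caerulein mice did not.

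Acinar cells make and secrete the digestive enzymes. After caerulein, an analogue of the hormone cholecystokinin, they lose part of this program, take on ductal features and recover over days to weeks. Pancreatic stellate cells are the fibroblast-like cells that lay down collagen after injury, and macrophages enter the damaged tissue from blood monocytes. Interferon-stimulated genes are a set of antiviral and antigen-presentation genes that many cell types switch on together through shared transcription factors.

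Libraries held 15469018 to 64784216 UMIs and 4327 to 15138 cells, and any 2 libraries shared 3 to 39 cell barcodes. rtTA reached 42.6, 48.2 and 49.5 CPM (UMIs of the gene scaled to a fixed total per library) in the i4F libraries, 0.676 and 0.166 in WT, and 0.118 and 0 in caerulein, over the 5 classes. It separated the genotypes as labelled. Pou5f1, which encodes Oct4, reached 2.57, 8.47 and 0.177 CPM in the i4F libraries against 0.470 and 1.85 in caerulein, so that the third i4F library lay below both caerulein libraries. The assay reads transcript ends, and whether transcripts of the cassette are counted under the genes of the 4 factors was not tested. Klf4 (182, 183 and 340 CPM in i4F, 226 and 259 in caerulein) and Myc (25.8, 33.2 and 88.0 against 40.1 and 51.6) did not separate the groups. Y-linked genes were detected in all 7 libraries and Xist was at 0.0337 to 0.706 CPM.

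The library i4F 3 stood apart from i4F 1 and i4F 2. Its median was 1248.5 UMIs per cell, the lowest of the series, and 41.1% of its cells had under 500 genes. Of its acinar cells 97.2% fell in the cluster Acinar_1, whereas 98.1% and 92.4% of the acinar cells of i4F 1 and i4F 2 fell in Acinar_2. Of its stellate cells 91.2% fell in a second activated cluster with more mesothelial than stellate markers among its 10 leading genes. It is named below by its mesothelial markers, after these leading genes alone, and the name does not say that its cells are mesothelium. Over all listed markers, 6 of 14 stellate and 4 of 6 mesothelial markers were higher there than in the other i4F cells. Of its macrophages 58.8% fell in a cluster with dendritic cell markers among its leading genes. In that cluster 10 of 13 macrophage and 6 of 12 dendritic cell markers were higher than in the other i4F cells. Counts of genes called and shares are therefore given with and without i4F 3. For stellate cells and macrophages the comparison was also confined to clusters without more markers of another cell type than of their own among the 10 leading genes. These held 4249, 2555 and 113 stellate cells of the i4F mice against 3675 and 2040 of the caerulein mice, and 2921, 2735 and 183 macrophages against 6989 and 2752. They are called the stellate clusters and the macrophage clusters, and for stellate cells this limit was set after the values were seen.

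Genes were tested on UMIs summed per library and class with edgeR's quasi-likelihood test in a fit of all 7 libraries, and a gene was called at a Benjamini-Hochberg adjusted p under 0.05. Values per gene are TMM-normalised CPM, scaled to the UMIs of the class in that library, and fold changes are log2 of i4F over caerulein with their standard error (SE). Library names in the titles start with AL for all i4F mice and AM for all caerulein mice, while the WT mice had 1 of each. With this series of names as a term, which only the WT libraries inform, 0 genes were called in the acinar, ductal, stellate and macrophage classes and in the macrophage clusters, 1 in the endothelial class and 61 in the stellate clusters. Each library came from a separate mouse. What the series of names stands for is not given in the sources used here, and its part in the results cannot be told apart from that of the groups.

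The macrophage share was 35.6%, 39.6% and 6.30% in the i4F mice, 50.3% and 40.3% in the caerulein mice, and 2.40% and 8.13% in the WT mice. All i4F values lay below both caerulein values, but as a share of the 5 classes i4F 2 (44.0%) and caerulein 2 (43.7%) changed order. The class includes clusters led by neutrophil or dendritic cell markers. In caerulein a cluster of 1392 cells named B lymphocytes, with dendritic cell markers among its leading genes, lies outside the class. Whole-class shares therefore do not count such cells alike in i4F and caerulein. The macrophage clusters, without those of neutrophil or dendritic cell markers, took 29.8%, 33.3% and 2.40% against 46.2% and 39.1%. The means were 27.2% ± 18.2 (SD, n = 3) and 45.3% ± 7.10 (SD, n = 2), a difference of -18.1 percentage points (p = 0.2 by an exact permutation test, two-sided, the lowest value possible with these group sizes, adjusted p = 1.0 over the 5 classes). Without i4F 3 the difference was -7.68 points (p = 0.333 by the same exact test, again the smallest possible).

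Acinar cells took 6.05%, 9.82% and 28.0% of the cells in i4F and 10.2% and 15.5% in caerulein. Only the share in i4F 3 lay above the caerulein range, and the difference of means was 1.75 points (p = 1.0, exact permutation test) with i4F 3 and -4.93 points (p = 0.333) without it. Ductal cells took 2.43%, 2.57% and 6.92% against 2.21% and 3.38%, and endothelial cells 3.17%, 5.44% and 8.72% against 3.70% and 3.92%. In WT the ductal share was 17.4% and 9.82% and the endothelial share 25.9% and 19.2%, above all 5 of these libraries. Stellate cells took 44.8%, 32.6% and 16.8% in i4F and 24.3% and 29.0% in caerulein, higher in i4F 1 and i4F 2 than in either caerulein mouse and lowest in i4F 3. Without the cluster of mesothelial markers the share of i4F 3 was 1.48% and the difference of means turned to -1.33 points. The difference of means was 1.18 points for ductal (p = 0.8), 1.97 for endothelial (p = 0.6) and 4.77 for stellate cells (p = 0.8) by the exact permutation test. Without i4F 3 it was -0.30, 0.49 and 12.1 points (exact p = 1.0, 1.0 and 0.333). The exact 95% binomial intervals drawn in the plot of shares cover counting error and not differences between mice.

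**Figure D1:**
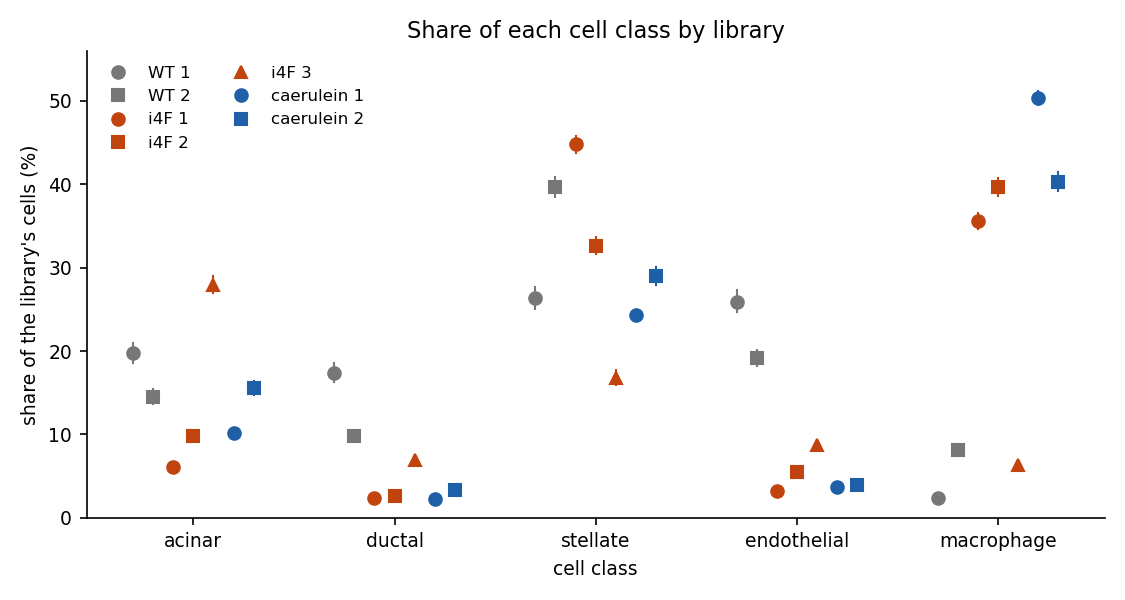
Share of each cell class (y axis, percent of all cells of the library) in the 7 libraries, grouped by class on the x axis. Points are libraries and bars are exact 95% binomial intervals. The macrophage share of i4F 3 (6.30%) sits far from i4F 1 (35.6%) and i4F 2 (39.6%), and its acinar share (28.0%) is the highest.

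In acinar cells few genes were called with all 3 i4F libraries, and Aldh3a1, Nccrp1 and Fetub were among those called higher in i4F. Of 11134 genes tested 14 were called (0.126%), 8 higher (0.0719%) and 6 lower (0.0539%) in i4F. Without i4F 3 the number was 2494 (22.5%), 1445 higher and 1049 lower (9.44%). It was 1918 of 10663 without the cells of Acinar_1 and 315 of 8995 without those of Acinar_2, 2 alternatives added after the values were seen. Without Acinar_2 i4F 1 kept 11 cells, under the 20 needed to enter the fit, and i4F 2 kept 61. Leaving out i4F 2, either caerulein library or either WT library left 0 calls, and leaving out i4F 1 left 1.

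Aldh3a1 (GRCm38 chr11:61207537-61218421), an aldehyde dehydrogenase abundant in cornea and stomach, reached 308, 641 and 200 CPM in i4F, 0.421 and 0 in caerulein and 0 in both WT libraries. It was found in every i4F library and was next to absent elsewhere. Over the summed libraries it had 4757 UMIs in i4F and 3 in caerulein, a ratio of 1211 (95% counting interval 414 to 5874), and edgeR's adjusted p was 0.040. Such counting intervals, here and below, pool the UMIs of a group and do not cover differences between mice. Nccrp1 (chr7:28543596-28547254), an F-box-associated protein of stratified epithelium, reached 925, 574 and 196 CPM against 5.89 and 4.91, and 1.52 and 4.37 in WT (log2 fold change 6.69, SE 0.81, adjusted p = 0.040, edgeR). Fetub, a protease inhibitor of the fetuin family, stood at 243, 446 and 207 CPM against 15.6 and 17.2 (4.19, SE 0.49), with 73.0 and 118 in WT. Tmc6, a transmembrane channel-like protein, stood at 92.3, 77.2 and 66.5 CPM against 13.7 and 12.9 (2.56, SE 0.31). Serpinb9, an inhibitor of granzyme B, was lower, at 16.9, 5.40 and 5.50 CPM against 152 and 149 (-4.00, SE 0.51), and WT stood at 7.60 and 4.37. For these 5 genes the i4F and caerulein libraries did not overlap, as was the case for 19.6% of all genes tested in the higher and 18.8% in the lower direction.

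The cluster Acinar_2, which held nearly all acinar cells of i4F 1 and i4F 2, had as its 10 leading genes Ly6g6c, Sprr2b, Sprr2a3, Slurp1, Mal, Fam25c, Krt13, Reg3g, Cnfn and Nccrp1, none of them an acinar marker. Most encode proteins of squamous or barrier epithelium, such as small proline-rich proteins, cornifelin and keratin 13. Since these genes define the cluster, their values are a description and not a test. Summed over the whole class they reached 23853, 15061 and 4049 CPM in i4F against 2772 and 3559 in caerulein, and 2518 and 157 in WT. The sum holds Reg3g, a Reg gene that was also a leading gene of the caerulein acinar cluster, and was not compared without it. It is therefore not a level of the squamous genes alone. Cnfn and Sprr2b had 0 UMIs in caerulein. Slurp1 stood at 745, 2066 and 39.5 CPM in i4F and at 0 UMIs in both caerulein libraries, at least 3357-fold higher against a floor of 3 UMIs over the caerulein group. Krt13 stood at 840, 747 and 24.0 CPM, with 1 UMI in caerulein (ratio 5281, 95% counting interval 947 to 208611). Ly6g6c stood at 4713, 1873 and 9.99 CPM against 0.842 and 0.614. In all of these i4F 3 was the lowest of the i4F libraries.

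The acinar program itself was low in i4F 1, i4F 2 and both caerulein mice and nearer to WT in i4F 3. Of the 34 digestive enzymes listed 13 had rows in the tables, and their sum was 4216, 5600 and 32465 CPM in i4F, 5993 and 3968 in caerulein, and 61005 and 75966 in WT. The remaining enzymes and 15 of the 20 acinar markers were not analysed here. Here and in other classes, sums over lists and markers are CPM without TMM factors, whereas values of single genes carry them. In the acinar class these factors ran from 0.697 in i4F 3 to 1.36 in caerulein 2, so that a single gene of i4F 3 can exceed the sum that holds it. The remaining 5 markers, Ptf1a, Rbpjl, Bhlha15, Gp2 and Cuzd1, summed to 1833, 4140 and 12198 CPM in i4F, 1477 and 1226 in caerulein, and 21518 and 22569 in WT. Of 12 enzymes tested 0 were called with all libraries (median log2 fold change 1.98, against 0.11 over all genes). Without i4F 3 the number was 3, near the share of 22.5% over all genes. Amy1 (2.01) and Amy2b (1.65), both amylases, were higher there and Prss1 (-3.50), a trypsinogen, was lower. Pla2g1b, the secreted pancreatic phospholipase A2, stood at 324, 1319 and 18954 CPM against 887 and 349, and at 25349 and 41520 in WT. Pnliprp2, a pancreatic lipase-related protein, stood at 1054, 2187 and 15089 CPM against 1598 and 1336. In both genes i4F 1 lay below the caerulein libraries and i4F 2 and i4F 3 above them (adjusted p = 0.29 and 0.34). Gp2, the main glycoprotein of the zymogen granule membrane, was higher in each i4F library, at 1220, 2716 and 12763 CPM against 743 and 517 (3.14, SE 1.01, adjusted p = 0.15). Without i4F 3 it was called (1.64, adjusted p = 0.015). Of 12 acinar transcription factors 0 were called with all libraries, and 5 were lower without i4F 3, against 9.44% of all genes. Among the 5 were Ptf1a and Rbpjl, subunits of the complex that drives enzyme genes, and Nr5a2.

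Ductal genes in the acinar class differed in which genes were high. The 14 ductal markers summed to 16172, 8230 and 5199 CPM in i4F, 45784 and 49563 in caerulein, and 7086 and 5730 in WT, so that the caerulein libraries were above all others. Clu, clusterin, a secreted chaperone high in regenerating acinar cells, is one of these markers and stood, with TMM factors, at 11329, 4204 and 5278 CPM against 34833 and 33825, with 7077 and 5833 in WT (-2.31, SE 0.56, adjusted p = 0.093, edgeR). With the same factors the marker sum was 15311, 7356 and 7499 in i4F, 37846 and 36850 in caerulein, and 8271 and 6831 in WT. Clu was thus most of the sum in every library, and the other markers were not compared apart from it. The higher sum in caerulein therefore describes Clu and is not shown for the other ductal markers. Without i4F 3 Clu was called (-2.14, adjusted p = 0.0077, edgeR). Of the 34 ductal and progenitor genes tested 0 were called with all libraries, with a median of 0.00. In the fit without i4F 3, 1445 of all 11107 genes tested were called higher and 1049 (9.44%) lower. Of this list 11 members were then called higher and 3 lower, the latter near the share over all genes. The higher ones included Tff1 (8.39), a trefoil peptide of gastric mucus, Krt20 (3.72), Ehf (2.90), an epithelial ETS factor, and Pigr (2.67), the receptor that carries IgA across epithelium. The lower ones were Clu, Muc1 (-1.63) and Prom1 (-0.93). In most acinar cells of the caerulein mice the UMIs of the markers of another cell type outnumbered those of the 5 acinar markers. Without such cells 52 of 1542 and 13 of 1094 remained, the latter too few to enter a fit, against 124, 419 and 1858 in i4F. The fitted values of Clu and Pla2g1b were 0.36 and -0.70 in these cells, where the median of all genes moved from 0.11 to 0.89. In this setting, with 1 caerulein library, Aldh3a1, Nccrp1, Fetub, Tmc6 and rtTA were no longer called. The fitted values were 7.44 for Aldh3a1, 7.58 for Nccrp1, 9.24 for Fetub and 6.97 for rtTA, and Tmc6 fell to 0.96.

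The Reg genes, secreted C-type lectins induced in inflamed pancreas, were higher in every i4F library for all 5 members tested, with 0 called. Their sum was 128709, 172946 and 242777 CPM in i4F and 36378 and 42785 in caerulein. The WT libraries differed from each other, at 108169 in WT 1, whose library name starts with AL as in i4F, and 2934 in WT 2. Reg2 (chr6:78395623-78408106) stood at 42076, 58704 and 191767 CPM against 8063 and 5678 (3.83, SE 1.43, adjusted p = 0.21). Reg3b stood at 66756, 82670 and 133948 against 19387 and 23166 (2.15, SE 1.46, adjusted p = 0.47). Without i4F 3 Reg3a (4.47) and Reg3d (3.48) were called. With the series of library names as a term the fitted values turned, to -1.01 for Reg2 and -4.77 for Reg3b.

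**Figure D2:**
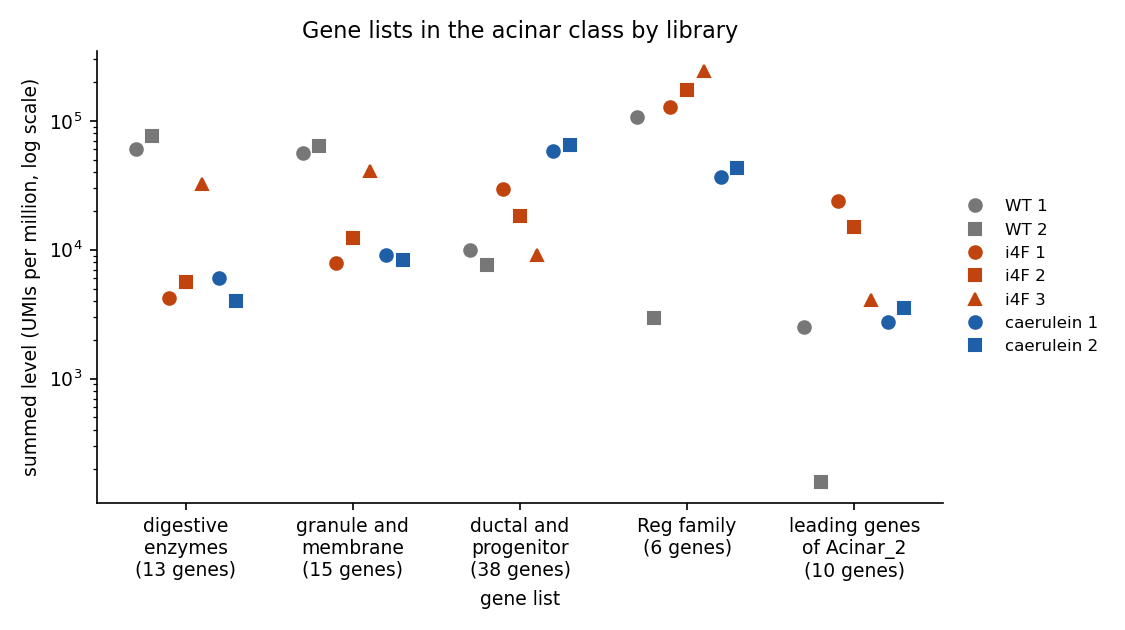
Summed level of 5 gene lists in the acinar class (y axis, CPM of the class, log scale) for each of the 7 libraries, by list on the x axis. Digestive enzymes of i4F 1 and i4F 2 (4216 and 5600) sit beside caerulein (5993 and 3968), i4F 3 (32465) sits nearer WT, and the Reg family is above caerulein in all 3 i4F libraries.

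In ductal cells most of the genes called were lower in i4F, and Stmn1, Lig1 and Smc4, which act in cell division or DNA replication, were among them. Of 11619 genes 45 were called (0.387%), 4 higher (0.0344%) and 41 lower (0.353%) in i4F. Without i4F 3 the number was 362 (3.23%), 126 higher (1.13%) and 236 lower (2.11%). Leaving out i4F 2 or either caerulein library left 0 calls, leaving out i4F 1 left 74, and leaving out either WT library left 22. Stmn1 (chr4:134468320-134473843), which encodes the microtubule-destabilising protein stathmin, stood at 135, 124 and 139 CPM in i4F, 1100 and 990 in caerulein, and 135 and 188 in WT. The i4F libraries lay close together and at the WT level, and the change was -2.98 (SE 0.24, adjusted p = 0.0059, edgeR). The same pattern held for Lig1, DNA ligase I, at 35.8, 30.6 and 47.1 CPM against 140 and 126 (-1.80, SE 0.26), and for Smc4, a condensin subunit, at 45.4, 44.6 and 35.9 against 144 and 139 (-1.76, SE 0.23). Dnajc9, a histone chaperone (-1.97, SE 0.23), Hist1h1e, a linker histone (-3.35, SE 0.50), and Pmf1, a kinetochore protein (-1.70, SE 0.26), were also called lower.

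Of the 28 cell cycle genes listed, all tested, 27 were lower in every i4F library than in both caerulein libraries, against 19.5% of all genes tested, and the median log2 fold change was -2.54 against 0.07 over all genes. Stmn1 was the 1 member called with all libraries, and 19 members were called lower without i4F 3, among them Mki67, Cdk1, Ccnb1, Mcm2 and Tyms. The sum of the list was 2781, 2263 and 1586 CPM in i4F, 8100 and 7535 in caerulein, and 2597 and 2355 in WT. H2afz, a histone variant, stood at 870, 762 and 404 CPM against 1911 and 1920 (-1.50, adjusted p = 0.10), and Tubb5, a beta tubulin, at 965, 680 and 221 against 2076 and 1648 (-1.58, adjusted p = 0.19). In the macrophage clusters the sums were also lower in every i4F library, at 2268, 1612 and 2206 CPM against 2390 and 2989, and 3 of 28 members, Mcm2, Mcm3 and Mcm6, were called lower. The sums were 5241, 5164 and 3618 CPM against 5201 and 5640 in the stellate clusters and 2180, 1991 and 584 against 2244 and 2805 in acinar cells. With TMM factors the stellate sums no longer overlapped, at 5451, 5198 and 3892 against 5571 and 5543, and the acinar sums did, at 2064, 1779 and 843 against 1855 and 2086. In endothelial cells they overlapped, at 2843, 2584 and 1378 against 2215 and 2377. Whether the ductal difference exceeds that of another class was tested only against acinar cells, gene by gene. In summed UMIs, fewer dividing cells and less RNA per dividing cell cannot be told apart.

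Among the genes higher in i4F ductal cells were rtTA, with 372 UMIs against 0 in caerulein (at least 94.0-fold against 3 UMIs over the group), and 2 interferon-stimulated genes. Rtp4, an interferon-induced chaperone of receptors, stood at 55.1, 66.2 and 43.2 CPM against 13.3 and 12.5 (2.06, SE 0.32, adjusted p = 0.045, edgeR). Ifit1, which binds viral RNA caps, stood at 30.5, 33.1 and 23.8 against 2.58 and 0 (3.96, SE 0.58, adjusted p = 0.039), with 19.2 and 16.0 in WT. Rgs5, a regulator of G-protein signalling best known from pericytes, was lower, at 47.7, 34.4 and 28.6 CPM against 225 and 228 (-2.62, SE 0.35). Serpinb9 was lower here too, at 43.2, 30.6 and 32.5 against 135 and 141 (-1.96, SE 0.24), and WT stood at 55.6 and 57.0.

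**Figure D3:**
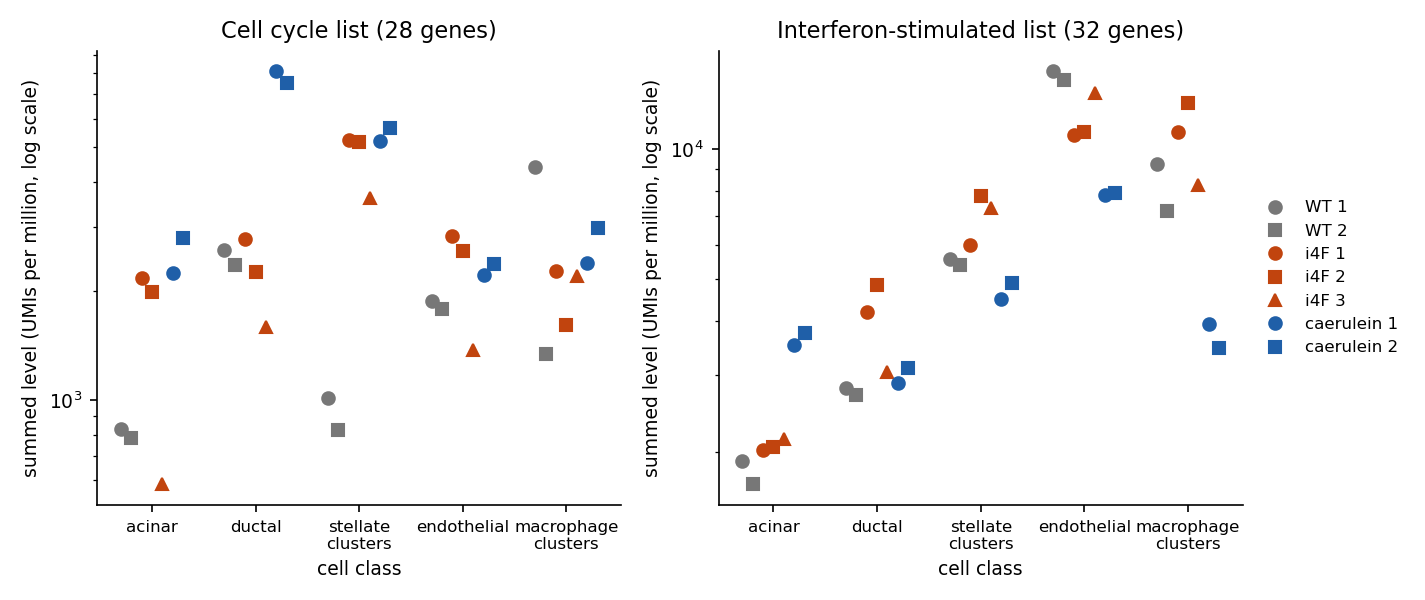
Summed level (y axes, CPM of the class, log scale) of 28 cell cycle genes, left, and 32 interferon-stimulated genes, right, in each library for 5 classes on the x axis. The ductal cell cycle sums of caerulein (8100 and 7535) are above all i4F and WT libraries, and the interferon sums are higher in all i4F than in both caerulein libraries in the stellate clusters, endothelial cells and macrophage clusters, and in the acinar class they are lower, an order that does not hold for i4F 3 with TMM factors.

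Interferon-stimulated genes were called higher in i4F in the ductal, stellate, endothelial and macrophage classes. Their promoters are shown here because many of them carry the motif bound by the interferon-activated factors, in its core form GAAANNGAAA, searched on both strands in 300 bases around the start of each gene (RefSeq sequences, GRCm38.p6). Of the 32 listed genes 24 matched a sequence, and 15 of these 24 (62.5%) held the motif, against 1079 of 27025 genes with a sequence (3.99%). The following stretches lie before the RefSeq start sites of 4 members called in at least 1 class. They run 5′ to 3′ on the strand of the gene, and capitals mark the motif or its reverse complement, overlapping copies joined.
Isg15 (chr4:156200845-156200914, minus strand): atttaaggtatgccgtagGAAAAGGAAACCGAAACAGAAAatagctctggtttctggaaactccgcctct
Ifit1 (chr19:34640774-34640843, plus strand): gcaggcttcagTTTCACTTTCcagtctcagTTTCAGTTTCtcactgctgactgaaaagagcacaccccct
Gbp3 (chr3:142559975-142560043, plus strand): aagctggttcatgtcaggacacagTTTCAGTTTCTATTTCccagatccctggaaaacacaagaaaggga
Gbp2 (chr3:142620574-142620643, plus strand): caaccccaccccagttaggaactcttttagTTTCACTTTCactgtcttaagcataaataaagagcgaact
In the GENCODE annotation Gbp2 starts at position 142620602 and Gbp3 at 142560026, both inside the stretch shown, and the Gbp2 motif lies after that start. Isg15 has 3 overlapping copies, Ifit1 and Gbp3 2 each, and Gbp2 1. Irf7, Xaf1 and a second listed start of Gbp3 hold no such letters in their windows. A match is a sequence feature and does not show that a factor was bound in these cells.

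Many genes differed in the stellate clusters, a limit set after the values were seen. Among them were 5 of 18 collagen chains, called lower in i4F, and 14 of 32 interferon-stimulated genes, called higher. This limit kept 113 of the 1280 stellate cells of i4F 3, those in the cluster that held most stellate cells of i4F 1 and i4F 2. Its effect on the spread between i4F libraries was not tested. In the stellate clusters 1298 of 14704 genes were called (8.83%), 650 higher (4.42%) and 648 lower (4.41%), and 1752 without i4F 3, 818 higher (5.12%) and 934 lower (5.84%). With the whole class, in which i4F 3 contributes mainly its cluster of mesothelial markers, 68 of 14818 were called (0.459%), and without i4F 3 896 were higher (5.58%) and 950 lower (5.92%). Leaving out caerulein 1 left 58 calls in the stellate clusters and leaving out caerulein 2 left 180, against 372 without i4F 1 and 334 without i4F 2.

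The genes with the largest rise included Anxa8 (chr14:34085981-34100571), an annexin, at 109, 138 and 43.6 CPM in i4F, 0.345 and 0.262 in caerulein, and 0.656 and 1.07 in WT (8.24, SE 0.63, adjusted p = 0.00090, edgeR). Crabp2 (chr3:87948666-87953376), which carries retinoic acid to its nuclear receptor, stood at 118, 80.1 and 104 CPM against 0.729 and 0.916, and 0.492 and 0.428 in WT (6.98, SE 0.29, adjusted p = 8.6e-05). Both genes were next to absent in caerulein and WT. Nppc, the C-type natriuretic peptide (5.24, SE 0.67), Cxcl13, a B cell chemokine (4.83, SE 0.74), and Stmn2, a relative of stathmin (3.37, SE 0.30), also rose. Nppc stood at 111, 194 and 59.5 CPM against 4.45 and 1.57. Cxcl13 stood at 203, 576 and 298 against 19.0 and 5.50, and Stmn2 at 306, 379 and 257 against 25.6 and 35.6. Cxcl13 and Stmn2 were also leading genes of a mesothelium cluster, in WT and in caerulein respectively. The 6 mesothelial markers summed to 64.5, 82.2 and 88.9 CPM against 50.4 and 56.7 in the stellate clusters, and 84.7 and 51.2 in WT, and their part in these rises was not tested. In another group of genes the i4F libraries were near WT and caerulein was low. Mustn1, a muscle and skeletal regulator, stood at 87.7, 81.5 and 74.4 CPM in i4F, 10.8 and 8.64 in caerulein, and 134 and 169 in WT (3.06, SE 0.20). The WT stellate cells include a cluster of 114 and 161 cells with Acta2, Myh11, Rgs5 and Mustn1 among its leading genes. In i4F and caerulein a smooth muscle cluster with Rgs5 and Myh11 among its leading genes lies outside the class. The WT level of Mustn1 is therefore not measured in like cells. Mgll, monoacylglycerol lipase, stood at 84.4, 57.2 and 56.3 against 3.38 and 2.62, and 41.4 and 68.9 in WT (4.44, SE 0.34). Timp3, an inhibitor of matrix metalloproteinases, stood at 999, 552 and 771 CPM against 107 and 126, and 704 and 629 in WT (2.74, SE 0.27, adjusted p = 0.0029).

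Lower in i4F were genes that caerulein and WT stellate cells both held. Aspn (chr13:49544443-49567565), asporin, a small proteoglycan that binds TGF-beta, stood at 9.22, 4.59 and 29.8 CPM in i4F, 212 and 194 in caerulein, and 163 and 218 in WT (-4.30, SE 0.59, adjusted p = 0.0078, edgeR). Mest, an imprinted gene of mesoderm, stood at 2.54, 3.87 and 12.8 against 77.3 and 55.4, and 91.6 and 141 in WT (-4.07, SE 0.50). Matn2, a matrilin of the extracellular matrix, stood at 22.1, 21.3 and 22.3 against 101 and 112, and 200 and 236 in WT (-2.28, SE 0.15, adjusted p = 0.00051). The i4F libraries lay below both other groups in all 3 genes. Abca8a, a lipid transporter, was lower in i4F than in caerulein (-3.30, SE 0.45), and caerulein in turn lay below WT, at 5.19, 4.05 and 15.9 CPM, 47.4 and 68.6, and 633 and 446.

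Of 18 collagen chains tested 5 were called lower and 0 higher, and the median was -0.66 against 0.01 over all genes. The called chains were the 3 of collagen VI that were listed, Col6a3 (303, 264 and 327 CPM against 615 and 783, -1.23, SE 0.18), Col6a1 (-1.20, SE 0.28) and Col6a2 (-1.05, SE 0.27), with Col18a1 (-1.15, SE 0.24) and Col5a3. The main fibrillar chains were not called. Col1a1 stood at 4206, 2288 and 4392 CPM against 5706 and 6204, and 1060 and 1196 in WT (-0.72, SE 0.28, adjusted p = 0.15). Col3a1 stood at 5562, 5135 and 7925 against 6775 and 7484 (-0.20, SE 0.23, adjusted p = 0.63), and its groups overlapped. Of 26 stellate activation genes tested 1 was called lower and 0 higher, with a median of -0.11. Of 17 matrix proteases and inhibitors 3 were called higher and 2 lower, the latter Plau, urokinase (-1.22, SE 0.20), and Adamts4, an aggrecanase (-1.15, SE 0.27). Of 22 hypoxia and glycolysis genes 3 were called higher and 2 lower, with a median of 0.53. They included Ankrd37 (2.47, SE 0.42) and the glucose transporter Slc2a1 (0.83, SE 0.18) among the higher, and the prolyl hydroxylase P4ha2 (-1.38, SE 0.19) and adrenomedullin, Adm (-1.10, SE 0.22), as the lower.

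Of 32 interferon-stimulated genes 14 were called higher and 0 lower in the stellate clusters (background 4.42% of all genes), 21 lay above caerulein in every i4F library (background 20.2%), and the median was 1.07. Without i4F 3, 15 were called higher and 2, Irf1 and Cxcl10, lower, against 5.12% and 5.84% of all genes. The lower members were thus near the share over all genes. Usp18, which removes ISG15 from proteins, stood at 35, 50.5 and 23.4 CPM against 5.07 and 6.41, and 11.8 and 11.1 in WT (2.76, SE 0.31, adjusted p = 0.0051). Zbp1, a sensor of nucleic acids, stood at 82.7, 94.0 and 103 CPM against 15.3 and 17.7, and 6.40 and 6.64 in WT (2.49, SE 0.18, adjusted p = 0.00063). Irf7, the factor that amplifies interferon production, stood at 76.7, 129 and 146 CPM against 24.8 and 25.4 (2.20, SE 0.29, adjusted p = 0.0070). Ifitm3, the list member with the highest count among those not called, stood at 4075, 4877 and 4399 CPM against 3337 and 3233 (0.44, SE 0.18, adjusted p = 0.17). The macrophage markers summed to 323, 285 and 450 CPM against 868 and 562 in these clusters, lower in every i4F library. Pf4, a chemokine of platelets and macrophages, was lower, at 41.1, 43.9 and 53.2 CPM against 359 and 155 (-2.51, SE 0.39), and the part of macrophage RNA in this was not tested.

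In endothelial cells most of the genes called were lower in i4F, and macrophage genes such as Lyz2 and Trem2 were among them. Of 8153 genes 49 were called (0.601%), 5 higher (0.0613%) and 44 lower (0.540%), and 78 (0.911%) without i4F 3, 64 of them lower (0.748%). Leaving out caerulein 1 or i4F 2 left 0 calls, leaving out i4F 1 left 3 and leaving out caerulein 2 left 9. Lyz2 (chr10:117277331-117282321), the lysozyme of myeloid cells, stood at 354, 315 and 74.2 CPM in i4F, 3795 and 2869 in caerulein, and 13.5 and 28.5 in WT (-3.76, SE 0.58, adjusted p = 0.035, edgeR). Trem2, a lipid receptor of macrophages, stood at 16.0, 17.6 and 4.28 CPM against 319 and 194 (-4.42, SE 0.47), and Ms4a7 at 6.86, 1.76 and 0 against 227 and 107 (-6.10, SE 0.65). Of 19 resident macrophage genes tested 9 were called lower. All 13 macrophage markers were detected in the tables, and they summed to 792, 748 and 233 CPM in i4F, 4389 and 2568 in caerulein, and 139 and 131 in WT. The endothelial markers summed to 11380, 13321 and 13837 CPM in i4F and 10251 and 15089 in caerulein. Cells of mixed markers are those with more UMIs of another cell type's markers than of their own, acinar and endocrine markers aside. Without them 424 of 560 and 240 of 276 endothelial cells of the caerulein mice remained. The number called was then 1, and Lyz2 was no longer called (-1.73, adjusted p = 0.61, edgeR). Macrophage markers are part of this filter, so the loss of macrophage genes is partly set by it.

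Among the other endothelial genes, Rgs5 stood at 6.86, 14.1 and 24.3 CPM in i4F, 157 and 201 in caerulein, and 137 and 191 in WT (-3.47, SE 0.40, adjusted p = 0.016). Here the i4F libraries were apart from both other groups. Without cells of mixed markers its value was -3.55 (adjusted p = 0.11). Higher in i4F were Usp18, at 43.4, 77.5 and 58.5 CPM against 11.2 and 15.7 (2.25, SE 0.38, adjusted p = 0.042), and Gbp3, a guanylate-binding protein, at 52.6, 66.9 and 91.3 against 18.7 and 15.7 (2.00, SE 0.35, adjusted p = 0.047). WT stood at 61.0 and 59.5 for Usp18 and at 110 and 95.5 for Gbp3, so that for both genes caerulein was the low group. Sult1a1, a sulfotransferase (158, 136 and 163 CPM against 32.7 and 37.6, 2.13, SE 0.27), and Qsox1, a sulfhydryl oxidase (119, 195 and 124 against 37.3 and 40.8, 1.92, SE 0.32), were higher than in both caerulein and WT. Of 32 interferon-stimulated genes tested 2 were called, and 18 lay above caerulein in every i4F library, against 12.3% of all genes. Their sum was 10783, 10982 and 13518 CPM in i4F, 7834 and 7938 in caerulein, and 15126 and 14477 in WT. Of 28 genes of capillary and tip cells and 12 of endothelial adhesion 0 were called in either direction by edgeR.

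In the macrophage clusters 24 of 32 interferon-stimulated genes, 7 of 15 class I antigen presentation genes and 9 of 24 inflammatory monocyte genes were called higher in i4F, and 4 of 24 lipid-associated macrophage genes were called lower. Over all genes 857 of 12272 genes were called (6.98%), 599 higher (4.88%) and 258 lower (2.10%), and 1208 (10.1%) without i4F 3. For the whole class, with the clusters of neutrophil and dendritic cell markers, the number was 202 of 12077 (1.67%), 143 of them higher (1.18%). Leaving out caerulein 1 left 2 calls in the macrophage clusters and leaving out caerulein 2 left 3, against 293 without i4F 1 and 179 without i4F 2.

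Of 32 interferon-stimulated genes 24 were called higher and 0 lower, 28 lay above caerulein in every i4F library (background 21.2%), and the median was 1.82 against 0.01 over all genes. Without i4F 3, 26 were called higher. The sum of the list was 10952, 12756 and 8262 CPM in i4F, 3935 and 3473 in caerulein, and 9250 and 7181 in WT. All i4F sums were above caerulein, and the WT sums were too. The WT libraries had 45 and 418 cells in these clusters, and their dendritic cell markers summed to 16133 and 15356 CPM with TMM factors. The same sum was 80.0, 82.4 and 785 in i4F and 113 and 92.2 in caerulein. WT values of the macrophage clusters therefore come from cells of another make-up. Irf7 (chr7:141262706-141266481) stood at 290, 656 and 125 CPM against 33.3 and 26.6, and 60.5 and 40.4 in WT (3.59, SE 0.61, adjusted p = 0.012, edgeR). Rtp4 stood at 113, 152 and 79.1 against 17.5 and 13.2 (2.92, SE 0.38, adjusted p = 0.0049), with 155 and 78.8 in WT. Gbp2, another guanylate-binding protein, stood at 17.5, 31.2 and 59.3 against 3.85 and 2.83 (3.13, SE 0.46). Cxcl10, a chemokine for T cells, was not called, at 372, 409 and 555 CPM against 199 and 234 (1.04, SE 0.34, adjusted p = 0.099), and WT lay above both at 2637 and 1227.

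Of 15 genes of MHC class I and peptide loading 7 were called higher, and 14 lay above caerulein in every i4F library. H2-Q7, a non-classical class I molecule, stood at 74.2, 75.2 and 125 CPM against 14 and 16.6, and 128 and 55.4 in WT (2.53, SE 0.38, adjusted p = 0.0089). H2-T23, the ligand of NKG2A receptors on NK cells, stood at 137, 176 and 152 against 47.4 and 35.8 (1.89, SE 0.25). The H2 genes are near copies of each other, and reads shared between them make single members uncertain. H2-D1 (2207, 2272 and 2178 CPM against 1551 and 1373, 0.60, adjusted p = 0.15) and B2m, the common light chain (1927, 1563 and 1386 against 1005 and 894, 0.78, adjusted p = 0.18), were not called, and B2m turned to -0.33 with the series of library names as a term. Of 10 MHC class II genes tested 0 were called by edgeR, with a median of 1.20 that became -0.29 without i4F 3. The i4F cluster with dendritic cell markers was left out here, and those markers include H2-Ab1 and H2-Eb1, both class II genes. The class II values of the macrophage clusters are therefore partly set by that choice. In the whole class, whose i4F 3 library held 13619 CPM of dendritic cell markers against 1428 and 473 in i4F 1 and i4F 2, the class II median was 5.51. In caerulein a cluster of 1392 cells named B lymphocytes, led by H2-Aa, H2-Eb1, H2-Ab1 and Cd74, lies outside the class. This class II median therefore does not compare like sets of cells. The sum of dendritic cell markers holds H2-Ab1 and H2-Eb1 too.

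Of 24 inflammatory monocyte genes 9 were called higher and 0 lower, with a median of 2.11. F10, coagulation factor X, stood at 253, 666 and 164 CPM against 27.5 and 23.8 (3.83, SE 0.64), and Il1r2, the decoy receptor of interleukin-1 and also one of the neutrophil markers, at 103, 930 and 59.3 against 14.8 and 14.3 (4.67, SE 1.12). In both of these i4F 2 was the highest library. Il1b stood at 9539, 11508 and 5977 CPM against 3462 and 1848 (1.76, SE 0.49, adjusted p = 0.061), and Chil3 at 1836, 11517 and 453 against 568 and 658, so that its groups overlapped (2.91, SE 1.56, adjusted p = 0.29). The 12 neutrophil markers, Il1r2 included, moved in the same direction in these clusters, at 23605, 32281 and 22866 CPM in i4F, 14709 and 9231 in caerulein, and 14374 and 17718 in WT. Their part in the result was not tested. With the series of library names as a term the fitted value of Chil3 turned to -11.05. Of 20 acute-phase and alarmin genes 6 were called higher, among them haptoglobin, Hp (3.31, SE 0.64), Slpi, a leukocyte protease inhibitor (3.03, SE 0.70), metallothionein, Mt2 (2.78, SE 0.50), and Il6, at 46.3, 98.5 and 35.6 CPM against 8.37 and 4.90 (3.20, SE 0.46, adjusted p = 0.0080).

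Genes of lipid-associated macrophages, the phagocytes of damaged tissue that take up lipid, changed in both directions. Of 24 tested 2 were called higher and 4 lower, with a median of -0.37. Fabp5, a fatty acid-binding protein, stood at 1075, 478 and 903 CPM against 2504 and 3240, and 413 and 307 in WT (-1.81, SE 0.33, adjusted p = 0.016). Syngr1, a synaptogyrin that was among the leading genes of the main caerulein cluster, stood at 178, 40.5 and 85.0 against 426 and 466 (-2.12, SE 0.48, adjusted p = 0.032), and was not called without i4F 3 (adjusted p = 0.057). Cd5l, a scavenger-receptor protein, was also lower (-2.29, SE 0.48). Cd9, a tetraspanin, was higher, at 312, 218 and 366 CPM against 84.0 and 71.7 (1.93, SE 0.34). Mmp12, macrophage elastase, stood at 32.8, 27.4 and 401 against 3.75 and 2.83 (5.36, SE 1.33) and was higher in every i4F library, most in i4F 3. Apoe and Spp1, a lipoprotein and the matrix protein osteopontin, were not called, at 30523, 11504 and 14623 CPM against 20309 and 22845 (-0.19, adjusted p = 0.84), and 14865, 6027 and 2301 against 6874 and 7752 (0.08, adjusted p = 0.98). Apoe turned to 0.97 with the series of library names as a term and to 0.088 without i4F 2. Of 24 resident macrophage genes 3 were called higher, Retnla (5.08, SE 1.10), Lyve1, a hyaluronan receptor (2.87, SE 0.62), and Vsig4, a complement receptor (2.23, SE 0.43). Retnla stood at 6.86, 64.0 and 107 CPM against 1.70 and 1.32, well under the 403 and 1379 of WT. C1qa and C1qb, complement components that mark the class, were not called (0.18 and 0.16). Of 18 matrix proteases and inhibitors 7 were called higher and 0 lower, among them Timp3 (3.04, SE 0.48) and Mmp13 (2.22, SE 0.45).

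Reg transcripts also stood higher in the i4F macrophage clusters, where all 5 members tested were called. Reg2 stood at 537, 1518 and 8102 CPM against 139 and 91.5 (4.87, SE 1.14, adjusted p = 0.036). These are products of acinar cells, and digestive enzymes moved with them in i4F 3, at 43.1, 135 and 1783 CPM against 54.8 and 45.6. The part of acinar RNA in this was not tested.

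**Figure D4:**
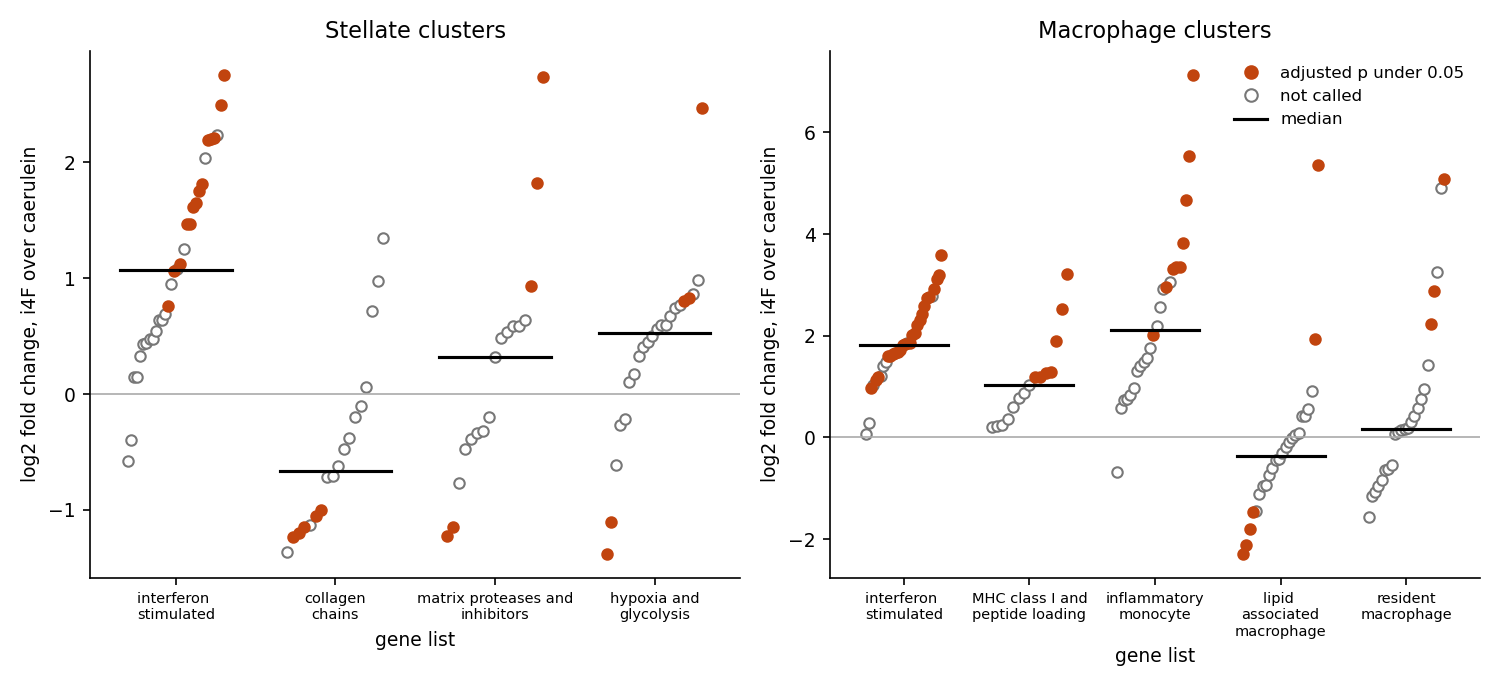
Log2 fold change of i4F over caerulein (y axes) for each member of 4 gene lists in the stellate clusters, left, and 5 lists in the macrophage clusters, right. Filled points are genes with adjusted p under 0.05, open points are not called and bars are medians. In the macrophage clusters 24 of 32 interferon-stimulated genes are called, all above 0, and in the stellate clusters the 5 called collagen chains lie below 0.

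Across the classes, 1 gene was called in the same direction in all 5, the transgene rtTA. Usp18 was called higher in the stellate, endothelial and macrophage classes, and Aldh3a1 was called higher in 3 classes. In the i4F mice Aldh3a1 had 4757 UMIs in acinar cells, 18 in ductal cells and 78 in macrophages. Acinar RNA was not tested as its source outside acinar cells. Gm2663, a leading gene of the caerulein acinar cluster, was called lower in 4 classes. It stood at 6.70, 2.55 and 0.485 CPM against 138 and 177 in ductal cells and at 1.96, 3.07 and 0 against 135 and 70.2 in macrophages, and acinar RNA in the other classes was not tested as its source. The number of genes called in opposite directions in 2 classes was 0 at an adjusted p under 0.05 by edgeR. Of 7375 genes tested in all 5 classes, 65 (0.881%) were higher in every i4F library in every class and 116 (1.57%) were lower. The 65 included 7 interferon-stimulated genes, Ifit3, Irf7, Isg15, Rtp4, Usp18, Xaf1 and Zbp1, and 3 Reg genes, Reg2, Reg3a and Reg3d. Ribosomal protein genes such as Rpl5, Rpl24, Rpl38, Rps10 and Rps27 were among them too. The 116 included macrophage genes such as Adgre1, Cd68, Lyz2, Trem2, Pf4 and Ms4a7. The part of RNA from other cells in these 2 sets was not tested. In acinar cells the interferon list had 0 of 27 members called and a median of 1.06. Its sum there depended on the scaling, at 2018, 2048 and 2136 CPM against 3533 and 3768 without TMM factors and at 1911, 1831 and 3081 against 2920 and 2802 with them, where i4F 3 lay above both caerulein libraries. Without i4F 3, Ifitm3 and Cxcl10 were called lower there and 6 other members were called higher. Over all acinar genes in that setting 1445 of 11107 were called higher and 1049 (9.44%) lower, so that the lower members were near the share over all genes.

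The difference between classes was tested directly for 2 pairs, with the mouse as a block. Between acinar and ductal cells the i4F against caerulein change differed for 422 of 12704 genes (3.32%), 320 of them more positive in acinar cells, and for 1727 (13.7%) without i4F 3. Without TMM scaling, which moved the median difference of all genes from 0.03 to -0.41, it differed for 162 genes, 80 of them more positive in acinar cells. Between stellate and endothelial cells it differed for 146 of 13784 genes (1.06%), 121 of them more positive in stellate cells, and for 652 (4.68%) without i4F 3. The genes with the largest differences are given in the closing section.

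**Figure D5:**
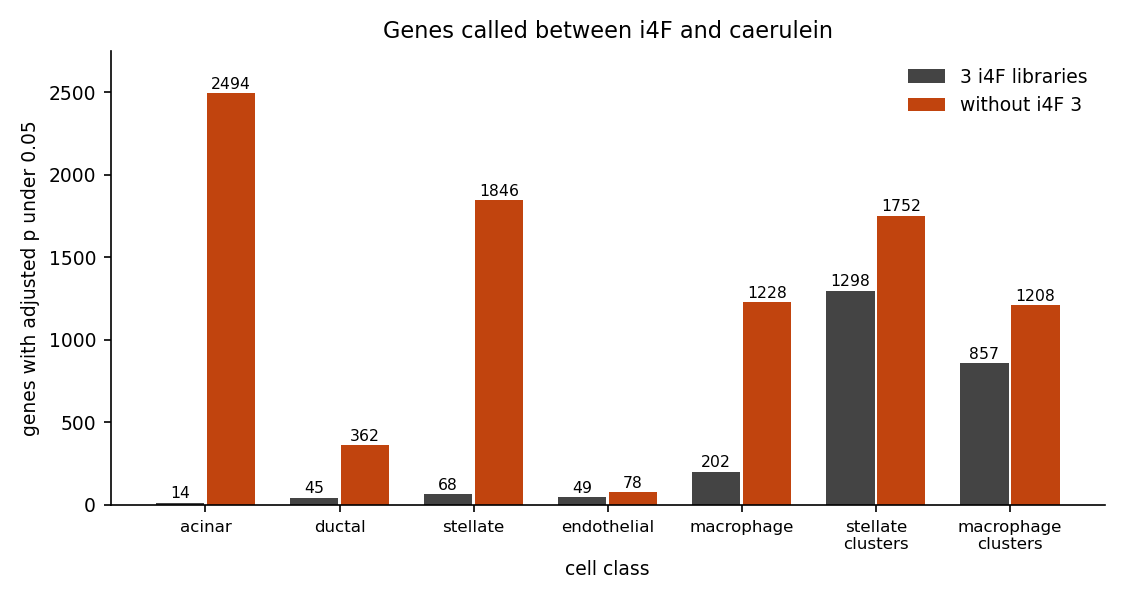
Number of genes called between i4F and caerulein at an adjusted p under 0.05 (y axis) in each class and in the stellate and macrophage clusters (x axis), with 3 i4F libraries (dark bars) and without i4F 3 (light bars). The acinar count is 14 with i4F 3 and 2494 without it, and the endothelial count is 49 and 78.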

How the data were processed

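UMI counts, deposited as 1 table per condition, were made by the authors from 10x 3′ libraries with Cell Ranger on mm10. The authors also deposited the percent of each cell's UMIs on mitochondrial genes. Its median per library was 0.963, 1.14 and 1.30 in i4F, 0.525 and 0.785 in caerulein, and 1.70 and 1.04 in WT. It was higher in every i4F library than in both caerulein libraries, and its part in the results was not tested. Per the study's methods, the authors removed cells below 150 genes or above 5% mitochondrial UMIs, ambient RNA was corrected with SoupX (before or after these counts is not stated), and each condition was clustered and named separately in Seurat. Doublet removal is not given in the sources used here, and no doublet caller was run. Tables listed 28166 (WT), 31676 (i4F) and 28764 (caerulein) genes, and a gene not listed for a condition entered as 0.

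UMIs were summed per library and class (315054 to 43312159 UMIs) and tested with edgeR 4.0.16 (quasi-likelihood, TMM, filterByExpr, 7 libraries, 3 groups, libraries of at least 20 cells), with DESeq2 1.42.0 as an alternative. Scripts were tested on simulated data. Class differences were tested with the mouse as a block. Shares were compared by exact permutation, with exact binomial intervals. Alternatives changed the filter, scaling, cells, libraries and covariates.

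Genes named were up to 10 per direction and class with adjusted p under 0.05, a mean log2 CPM of 5 or more and no overlap between groups, with the called members of largest change and the highest other members of each of 28 gene lists, genes called in several classes, and up to 5 per direction for each class difference. Others were chosen after their values were seen: the leading genes of Acinar_2, Ms4a7 and members named for a change without i4F 3. The classes and gene lists were chosen with earlier results of these data known. Confining stellate cells to clusters that passed the marker check was decided after the values were seen. Some genes that met the rule are not reported here. Promoter sequences are from RefSeq.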

Additional observations from a re-analysis of the deposited data

Results flagged for a closer look

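These genes differed between classes in their i4F against caerulein change, by a test of the difference itself (edgeR's quasi-likelihood test with the mouse as a block), and values are CPM of the class in that library, without TMM scaling. The 5 genes named first had the most positive difference between acinar and ductal cells. Psca, prostate stem cell antigen (difference 11.78, SE 1.33), stood at 388, 120 and 205 in acinar cells of the i4F mice and 0 and 1.24 in caerulein, and at 1.37, 0 and 0.481 against 3.63 and 1.23 in ductal cells. It was present in acinar cells of all 3 i4F mice. Krt16, a stress keratin (8.35), and Anxa8 (7.67) were high in acinar cells of i4F 1 and i4F 2 only, at 572, 500 and 0.693, and 272, 261 and 3.46, against at most 0.413 and 0.509 in caerulein. In ductal cells i4F 1 and i4F 2 were also the highest. Krt16 stood there at 3.43, 9.86 and 0 against 1.21 and 1.23, and Anxa8 at 43.2, 21.0 and 0.963 against 8.87 and 7.38. Msln, mesothelin (5.72), stood at 239, 73.6 and 2.77 against 0.339 and 2.89 in acinar cells. S100a14, a calcium-binding protein (6.34), stood at 93.8, 117 and 7.97 against 2.38 and 2.48 in acinar cells and at 35, 50.6 and 10.6 against 85.9 and 76.3 in ductal cells, higher in one class and lower in the other. Psca, Krt16 and Anxa8 each had 3 UMIs in caerulein acinar cells, so their fitted differences depend on the prior count.

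The 5 with the most negative difference were Cda, cytidine deaminase (-2.81), Stbd1 (-2.80), Serpinb6b (-2.80), Ddit3, the stress factor CHOP (-2.65), and Cxcl5 (-2.63). Ddit3 stood at 59.8, 24.8 and 49.9 against 147 and 154 in acinar cells and at 63.8, 76.4 and 140 against 38.3 and 34.4 in ductal cells, lower in one class and higher in the other. Without cells of mixed markers only 1 caerulein library had enough acinar cells to enter and the median difference of all genes moved from 0.03 to 5.44. All 5 values turned in that setting, and the 5 genes of positive difference lost their call. The differences of the latter were 10.44 for Psca, 5.41 for Krt16, 5.27 for Anxa8, 8.17 for S100a14 and 5.72 for Msln.

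Between stellate and endothelial cells the most positive differences were in Slpi (4.85), Palmd (4.69), Pi15 (4.67), Mgll (4.26) and Rgs5 (3.98), and the most negative in Plcb4 (-2.26), Slc10a6 (-2.20), Noct (-1.99), Sema7a (-1.97) and Qsox1 (-1.91). These are values of the whole stellate class, in which 91.2% of the cells of i4F 3 fell in the cluster of mesothelial markers, and the mesothelial markers summed to 130, 176 and 392 against 50.4 and 56.7. With TMM factors the stellate markers summed to 33295, 26531 and 42769 CPM against 43746 and 44603. Slpi is a leading gene of that cluster and of the mesothelium clusters of WT and caerulein, and the part of these cells was not tested. Without cells of mixed markers Pi15 (9.44, adjusted p = 0.29, edgeR) and Rgs5 (3.94, adjusted p = 0.050) lost their call. Pi15 was low in endothelial cells, at 2.27, 1.74 and 0 against 5.03 and 6.35. Rgs5 stood at 6.81, 13.9 and 22.1 against 141 and 203 in endothelial cells and at 1.34, 1.04 and 16.3 against 4.37 and 2.80 in stellate cells, where only i4F 3 lay above caerulein. Without i4F 3 its difference was 2.27, and that of Serpinb6b was -2.01 and that of Msln 6.96. Sema7a, a semaphorin, stood at 272, 272 and 183 against 83.0 and 149 in endothelial cells and at 12.6, 18.1 and 3.96 against 18.9 and 20.2 in stellate cells.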

How the results depend on the processing

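Counts of genes called moved with the processing in every class. In the order acinar (14 as reported), ductal (45), stellate (68), endothelial (49) and macrophage (202), they were 604, 258, 790, 119 and 1085 with DESeq2, 1388, 843, 1210, 413 and 1728 without the filter on low counts, and 3, 101, 6, 7 and 21 without the 5% of cells with the most UMIs. With the series of library names as a term they were 0, 0, 0, 1 and 0. With i4F and caerulein libraries only they were 0, 24, 4, 76 and 240. Without cells of mixed markers they were 15, 92, 69, 1 and 552. The acinar count was 0 without TMM (2383 genes at an unadjusted p under 0.05), 100 in cells with at least 500 genes, 28 with acinar genes left out, 1918 without Acinar_1 and 315 without Acinar_2, where i4F 1 did not enter. In the stellate clusters (1298) it was 2496 without the filter and 61 with the series term, and in the macrophage clusters (857) 1766 and 0. Leaving out 1 library at a time gave 0 to 2494 acinar, 0 to 362 ductal, 0 to 1846 stellate, 0 to 78 endothelial and 0 to 1228 macrophage calls, 58 to 1752 in the stellate clusters and 2 to 1208 in the macrophage clusters. Without caerulein 1 or 2 the lone caerulein library is assumed to vary like the other groups, and 86 and 74 of 115 single genes lost their call. The acinar against ductal difference (422) gave 162 without TMM, 808 without the filter, 209 without WT, 118 without mixed cells and 6 to 1727 with 1 library left out, and stellate against endothelial (146) gave 148 without TMM, 385 without the filter, 56 without WT, 104 without mixed cells and 4 to 652.

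No pairing of mice by replicate number is given in the sources used here. Correlations of same-numbered libraries' deviations ran from -0.0397 to 0.128 between i4F and caerulein. They ran from -0.141 to 0.0989 between WT and i4F and from -0.445 to -0.218 between WT and caerulein. Deviations are taken from group means, so those of the caerulein libraries mirror each other, and such values cannot exclude a pairing. With the replicate block the counts were 2136, 93, 883, 27 and 385 in the 5 classes, 838 in the stellate clusters and 688 in the macrophage clusters. The block is in the design of the class differences as the mouse, not as the number.

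The log2 ratio of acinar shares (0.18) turned to -0.50 in cells with at least 500 genes and -0.086 among non-immune cells, and that of stellate shares to -0.074 in the clusters without more markers of another cell type, chosen after the values were seen. With 1 library left out it ran from -0.70 to 0.55, the ductal ratio from -0.16 to 0.85 and the stellate ratio from -0.11 to 0.54, while endothelial (0.18 to 0.89) and macrophage (-1.11 to -0.27) ratios kept their sign. Without mixed cells the median of all genes moved to 0.89 in acinar cells and to 5.44 in the acinar against ductal difference, and single genes turned there (Pla2g1b -0.70, Clu 0.36, Cda 8.45, Stbd1 8.30, Serpinb6b 7.13, Ddit3 8.61, Cxcl5 3.27). Others turned with the series term (Reg2 -1.01 and Reg3b -4.77 in acinar cells, and in the macrophage clusters Slfn4 -2.44, B2m -0.33, Chil3 -11.05, Fpr1 -4.88, Apoe 0.97, Reg3a -3.30). With 1 library left out Apoe ran from -0.68 to 0.088, the latter without i4F 2. Of the values of single genes under settings other than leaving out 1 library 884 kept their direction and side of the threshold, 151 lost their call and 41 gained one. The causes were not tested. Endothelial cells of caerulein 2 had the fewest UMIs of the 5 classes, 315054.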

Other observations

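Nr1d1, Arntl, Per3 and Dbp, genes of the circadian clock, were picked after their values were seen. Nr1d1, the repressor REV-ERB alpha, was called lower in i4F in 2 classes. It stood at 4.57, 3.52 and 12.8 CPM in i4F, 71.9 and 78.4 in caerulein, and 14.4 and 4.61 in WT endothelial cells (log2 fold change -3.30, SE 0.57, adjusted p = 0.047, edgeR). In macrophages it stood at 2.45, 3.47 and 5.20 against 17.1 and 22.2, and 2.91 and 1.99 in WT (-2.54, SE 0.33, adjusted p = 0.035). Arntl, the activator BMAL1, was higher and Per3, a period gene, lower in every i4F library in all 5 classes, with 0 called at an adjusted p under 0.05 by edgeR. Arntl in stellate cells stood at 19.1, 16.4 and 24.4 CPM against 9.41 and 9.60, and 27.4 and 32.5 in WT. Dbp, a clock output gene, was lower in every i4F library in stellate cells, endothelial cells and macrophages. The hour at which each mouse was killed is not given in the sources used here, and its part in these values cannot be told apart from that of the groups.

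Immediate early genes in ductal cells were nearer to WT in i4F 3 than in the other libraries. Their sum was 12732, 16976 and 41662 CPM in i4F, 12603 and 12090 in caerulein, and 42581 and 43749 in WT. Of 21 tested 0 were called by edgeR and 13 lay above caerulein in every i4F library, against 17.0% of all genes, with a median of 1.12. Without i4F 3, 3 were called higher (Fosl1, Ier3 and Myc) and the median was 0.36.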
